A study of Rattus norvegicus with 12 samples.

Results

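The 10 genes described here are immediate early genes: Fos, Fosb, Jun, Junb, Atf3, Egr1, Egr2, Ier2, Ier3 and Dusp1. They were taken by gene symbol from the platform annotation. All 10 were on the array, with 15 of its 31099 probe sets, and they make up 10 of the 14217 genes tested. The tissue was the abdominal mammary gland, taken on postnatal day 64 from female Sprague-Dawley rats. Every rat had been ovariectomized on day 50, so every group lacks the ovary as a source of estrogen. The 4 groups were casein diet plus 17β-estradiol (E2), casein diet alone, soy protein isolate (SPI, or soy) plus E2, and soy alone. Diets ran from day 30 to day 64, and E2 came from a mini-osmotic pump for 14 days. Each group had 3 arrays, and each array held pooled RNA. How many animals a pool held is not given in the sources used here.

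Immediate early genes are switched on within minutes of a growth factor, hormone or stress signal, before any new protein has to be made. The Fos and Jun proteins pair to form the transcription factor AP-1. Egr1 and Egr2 are zinc finger transcription factors, Atf3 is a stress-induced factor that can pair with Jun proteins, and Dusp1 is a phosphatase that switches MAP kinases off again. In the mammary gland these genes respond to growth factors, to estrogen in epithelial cells and to the handling of tissue. Here the tissue was taken after 14 days of E2, so a response within minutes of E2 was not measured.

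The promoters show the sequence elements through which such signals are read. They are printed because Egr2, which E2 raised, and Egr1, which did not pass, hold the same elements. Dusp1 and Ier2 share a different element, named below. Of the 10 genes 6 had an entry in the RefSeq promoter table (build GRCr8), and the 250 bases before the annotated start were searched on both strands. The CArG box, bound by serum response factor, was found in Egr1 (2 matches) and Egr2 (1 match), against 1.5% of 33469 promoters. The full cyclic AMP response element, TGACGTCA, was found in Dusp1 and Ier2, against 1.59% of promoters. Its first 5 bases, TGACG, which the full element also contains, were found in 5 of the 6, all but Fosb, against 18.2% of promoters. Neither the AP-1 element TGANTCA (6.34% of promoters) nor the full palindromic estrogen response element (0.0239% of promoters) was found in these 6 windows. A match is a string of letters and does not show that a factor binds there. In the 4 sequences below, each ending at the base before the annotated start, capitals mark CArG boxes and TGACG or its complement.
Egr2, chr20:21054442-21054591, minus strand: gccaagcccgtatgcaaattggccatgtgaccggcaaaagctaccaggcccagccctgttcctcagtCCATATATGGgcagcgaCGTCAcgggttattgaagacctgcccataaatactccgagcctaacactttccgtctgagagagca
Egr1, chr18:26736878-26737077, plus strand: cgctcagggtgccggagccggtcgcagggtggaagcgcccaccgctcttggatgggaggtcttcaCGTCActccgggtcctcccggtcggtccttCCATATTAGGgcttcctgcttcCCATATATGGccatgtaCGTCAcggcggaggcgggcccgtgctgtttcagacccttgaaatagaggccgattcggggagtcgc
Dusp1, chr10:17184653-17184852, plus strand: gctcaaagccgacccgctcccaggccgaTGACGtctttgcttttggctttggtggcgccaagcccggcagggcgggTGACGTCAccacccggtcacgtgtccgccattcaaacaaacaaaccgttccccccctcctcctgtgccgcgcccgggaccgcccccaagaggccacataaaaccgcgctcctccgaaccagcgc
Ier2, chr19:40399223-40399372, plus strand: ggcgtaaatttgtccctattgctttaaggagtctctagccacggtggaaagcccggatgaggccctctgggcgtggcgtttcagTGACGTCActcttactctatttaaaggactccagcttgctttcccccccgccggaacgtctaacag
The CArG box of Egr2 and the nearer one of Egr1 begin at the same distance from the start, position -83, and in both genes TGACG (read on the other strand) begins at -66. The Egr2 start used in that table lies inside the span that RefSeq gives for the gene, chr20:21050149-21055201.

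All values below are log2 values that were centred on each probe set's median over the 12 arrays, so 0 is the middle of the arrays and not an absence of RNA. Such values show how arrays differ for a gene but hold no level, so genes cannot be ranked by abundance. For the same reason the presence of mammary cell types could not be checked from marker levels. Casein plus E2 pools 2 and 3 were almost one array (SD of their difference 0.163, against 0.301 or more in the other 65 pairs), and their mean was used as 1 sample. That leaves 11 samples, with n = 2 in casein plus E2 and n = 3 in each other group. Some arrays stood apart. Casein pool 3 had liver transcripts (mean of 8 marker genes 5.85, against 0.36 or less in the other samples). Casein pool 2 (3.80) and soy pool 2 (4.08) had the highest skeletal muscle marker means. The hybridisation controls, bacterial transcripts added in the laboratory, split the arrays into 6 above 0 and 6 below. This split was not independent of group. Every array of the casein group was above 0, while each of the other groups had arrays on both sides. The labels do not say whether the pools of a group drew on separate rats, and p-values therefore reflect pool-to-pool spread alone, which may be technical.

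Estradiol raised 3 of the 10 genes when its effect was averaged over both diets: Ier3, Atf3 and Egr2. Their effects lay between 1.78-fold and 2.08-fold, and the core AP-1 genes Fos, Fosb, Jun and Junb did not pass. In limma's test over all genes, 6.73% of the 14217 genes were called higher and 5.51% lower (12.2% in either direction, Benjamini-Hochberg adjusted p under 0.05), and 0 of the 10 were called lower. An unadjusted p under 0.05 was reached by 6 of the 10, against 29% of all genes. The median change of the 10 genes was 0.237 on the log2 scale, against 0.004 over all genes, and 6 of the 10 changes were positive. RNA was of the whole gland, so fewer cells of a type and less RNA per cell cannot be told apart.

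**Figure D1:**
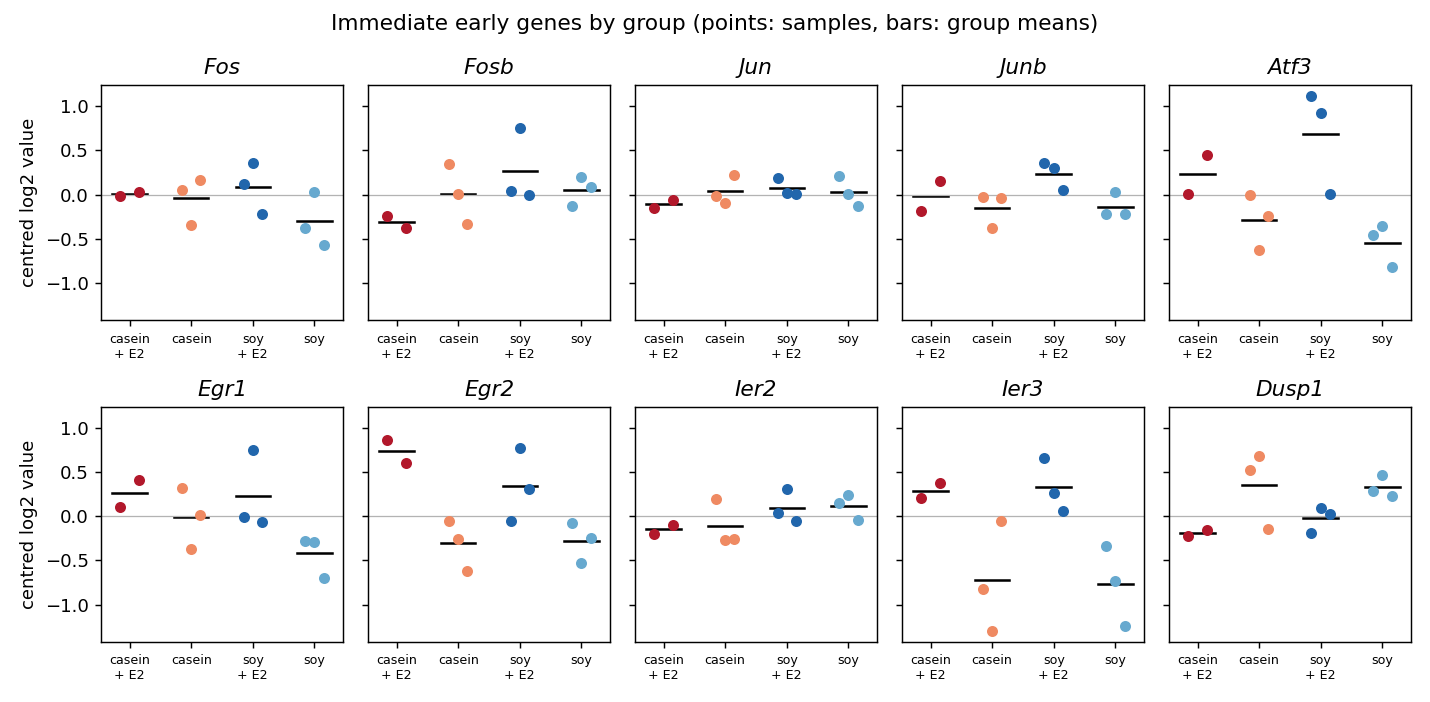
Centred log2 value (y axis) of each of the 10 immediate early genes in the 4 groups (x axis), with a point for each of the 11 samples and a black bar for the group mean. Ier3 and Atf3 lie higher in every sample with E2 than in every sample without it. Dusp1 lies lower in soy plus E2 than in soy, and Jun stays within a narrow band.

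Among the AP-1 family and its partners only Atf3 passed. Atf3 stood at 0.0063 and 0.45 in casein plus E2, against -0.0063, -0.63 and -0.24 in casein. In the soy diet it stood at 1.12, 0.92 and 0.0113 with E2, against -0.46, -0.36 and -0.83 without E2. All 5 E2 samples lay above the other 6, as they did for Ier3 and for 4.26% of all genes, but casein pool 1 and casein plus E2 pool 1 were almost level. The mean E2 effect was 0.88 ± 0.21 (log2 fold change ± SE, 1.84-fold, limma adjusted p = 0.0309). The call was lost without any of casein pool 2, casein plus E2 pool 1, soy pool 3, soy plus E2 pool 1 or soy plus E2 pool 2, with effects of 0.77 to 0.99 and adjusted p from 0.0611 to 0.0764.

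Fos, the founding AP-1 gene, stood at -0.0119 and 0.0281 in casein plus E2, against 0.0557, -0.34 and 0.16 in casein. In the soy diet it stood at 0.11, 0.36 and -0.22 with E2, against -0.38, 0.0335 and -0.57 without E2. The groups overlapped in both diets, and the mean E2 effect was 0.22 (95% interval -0.11 to 0.55, limma adjusted p = 0.368). The 2 Fos probe sets differed in how much they moved. One ranged from -1.10 in soy pool 3 to 0.58 in soy plus E2 pool 2, while the other stayed between -0.29 and 0.23 over all arrays, and their E2 effects were 0.39 ± 0.26 and 0.05 ± 0.10.

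Junb, a Jun protein that often restrains growth, stood at -0.19 and 0.15 in casein plus E2, against -0.0309, -0.38 and -0.0438 in casein. With the soy diet it stood at 0.36, 0.30 and 0.0476 with E2, against -0.22, 0.0309 and -0.22 without E2. The soy groups did not overlap and the casein groups did. Its mean E2 effect was 0.25 (95% interval 0.0127 to 0.50, limma adjusted p = 0.154) and did not pass.

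Jun and Fosb had mean E2 effects near 0. Jun varied little, with a range of 0.372 over the 11 samples, and 17.2% of genes had a smaller one. Its mean E2 effect was -0.05 (95% interval -0.25 to 0.14), and its 3 probe sets gave -0.16, -0.06 and 0.07. Fosb, a member of the Fos family, had a mean E2 effect of -0.05 (95% interval -0.43 to 0.32). It was highest in soy plus E2 pool 2 (0.75) and lowest in the casein plus E2 samples (-0.25 and -0.38) and casein pool 3 (-0.34). These intervals do not reach a doubling in either direction.

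Of the Egr genes, Egr2 rose and Egr1 did not pass. Egr2, also called Krox20 and best known for its role in nerve myelination, stood at 0.87 and 0.61 in casein plus E2, against -0.0537, -0.25 and -0.61 in casein. In soy-fed rats it stood at -0.0565, 0.77 and 0.31 with E2, against -0.0756, -0.53 and -0.24 without E2. Neither diet's groups overlapped in the mean of its 2 probe sets, though soy plus E2 pool 1 lay level with casein pool 1 and soy pool 1. In each probe set alone the soy groups did overlap. Soy plus E2 pool 1 (-0.0689) lay below soy pool 1 (0.0689) in 1 of them. In the other, soy plus E2 pool 1 (-0.0442) lay below soy pool 3 (0.0773). The mean E2 effect was 0.83 ± 0.17 (1.78-fold, limma adjusted p = 0.0174). The call was lost without casein plus E2 pool 1 (0.77, adjusted p = 0.0748) and held when any other array was left out. Its 2 probe sets gave effects of 1.22 ± 0.24 (adjusted p = 0.0184 over all probe sets) and 0.45 ± 0.13 (adjusted p = 0.0594), the same direction at different sizes.

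Egr1, whose upstream sequence carries the same elements, stood at 0.11 and 0.41 in casein plus E2, against 0.32, -0.37 and 0.014 in casein. In the soy diet it stood at -0.014, 0.76 and -0.0671 with E2, against -0.28, -0.29 and -0.69 without E2. The casein groups overlapped and the soy groups did not. Its mean E2 effect was 0.46 (95% interval 0.0438 to 0.88, limma adjusted p = 0.136). A difference between the E2 effects on Egr1 and Egr2 was not tested.

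Ier3 had the largest mean E2 effect of the 10 genes, and Ier2 one near 0. Ier3, an early response gene that acts on cell survival, stood at 0.20 and 0.38 in casein plus E2, against -0.82, -1.30 and -0.0546 in casein. The soy-fed samples stood at 0.66, 0.27 and 0.0546 with E2, against -0.34, -0.73 and -1.24 without E2. All 5 samples with E2 lay above all 6 without, and the samples without E2 were the more spread (SD 0.49, n = 6, against 0.23 with E2, n = 5, both over 2 diets). The mean E2 effect was 1.06 ± 0.24 (2.08-fold, limma adjusted p = 0.0254). The call was lost without casein plus E2 pool 1 (1.10, adjusted p = 0.0784), soy plus E2 pool 1 (0.97, adjusted p = 0.0633) or soy plus E2 pool 2 (1.07, adjusted p = 0.0584). Ier2 ranged from -0.27 in casein pool 2 to 0.30 in soy plus E2 pool 2, and its mean E2 effect was -0.03 (95% interval -0.28 to 0.22).

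Dusp1 was the 1 gene of the 10 whose mean E2 effect over both diets was negative by more than its standard error, and it did not pass. It stood at -0.22 and -0.15 in casein plus E2, against 0.52, 0.68 and -0.15 in casein. The soy-fed samples stood at -0.18, 0.0928 and 0.0279 with E2, against 0.28, 0.47 and 0.23 without E2. The soy groups did not overlap in the mean of its 2 probe sets. In 1 of them they did, with soy plus E2 pool 2 (0.2786) above soy pool 3 (0.0372). In the casein diet the groups were apart only because casein plus E2 pools 2 (-0.1804) and 3 (-0.1265) were averaged to -0.1534, since casein pool 3 at -0.1455 lay between those arrays. The mean E2 effect was -0.44 ± 0.14 (95% interval -0.76 to -0.12, limma adjusted p = 0.0714). Without casein pool 3, the array with liver transcripts, it was -0.57 ± 0.08 with adjusted p = 0.0112. With the near-identical pair as separate arrays and pool number as a replicate block it was -0.44 with adjusted p = 0.0441. Without casein pool 1 it was -0.40 (adjusted p = 0.131), and without casein pool 2 it was -0.36 (adjusted p = 0.126). Its 2 probe sets alone gave -0.375 (adjusted p = 0.138 over all probe sets) and -0.51 (adjusted p = 0.125).

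**Figure D2:**
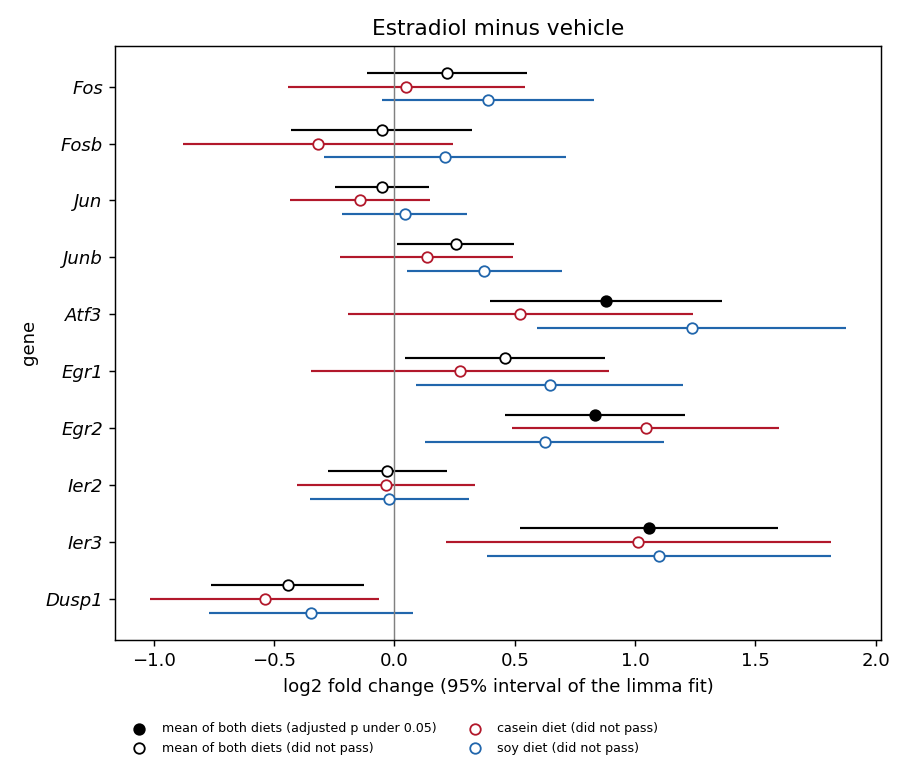
Log2 fold change of E2 against no E2 (x axis) for each gene (y axis), as the mean of both diets (black), in the casein diet (red) and in the soy diet (blue), with 95% intervals of the limma fit. Filled points passed over all genes (Atf3, Egr2 and Ier3 for the mean of both diets), and open points did not.

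Within a single diet 0 of the 10 genes passed. In casein-fed rats the E2 group lay wholly above its control for 3 of the 10 genes (Egr2, Atf3 and Ier3), against 22.5% of all genes, and wholly below for 1 (Dusp1, which overlaps as separate arrays), against 17.3%. In soy-fed rats it lay wholly above for 5 (Junb, Egr1, Egr2, Atf3 and Ier3), against 12.6% of all genes, and wholly below for 1 (Dusp1), against 12%. These are means of a gene's probe sets, and the soy groups overlapped in each Egr2 probe set and in 1 Dusp1 probe set. In casein-fed rats limma called 2.43% of all genes, and 3 of the 10 had an unadjusted p under 0.05 (Egr2, Ier3 and Dusp1), against 19.6% of all genes. Egr2 came nearest there, at 1.04 ± 0.25 (2.06-fold, adjusted p = 0.0602). It passed with the hybridisation control split as a term (1.25, adjusted p = 0.0322), though every casein array is on the high side of that split. In the casein diet that term therefore overlaps in part with E2. Egr2 also passed with 12 separate arrays and pool number as a replicate block (1.0, adjusted p = 0.0431). Those 12 count the near-identical pair as 2 arrays. Without casein pool 2 its effect was 1.07 (adjusted p = 0.125), and without casein pool 3 it was 0.89 (adjusted p = 0.108). Without casein plus E2 pool 1 it was 0.91. In soy-fed rats limma called 0.218% of all genes, and 5 of the 10 had an unadjusted p under 0.05 (Atf3, Ier3, Egr2, Egr1 and Junb), against 20.6% of all genes. Atf3 came nearest, at 1.23 ± 0.29 (2.35-fold, adjusted p = 0.0905). It passed without soy plus E2 pool 3 (1.57, adjusted p = 0.00945), the soy plus E2 sample in which Atf3 stood lowest. Other removals weakened it: 1.02 without soy plus E2 pool 1 (adjusted p = 0.281) and 1.12 without soy plus E2 pool 2 (adjusted p = 0.351). Without soy pool 3 it was 1.10 (adjusted p = 0.214).

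The E2 effect was not shown to differ between diets for any of the 10 genes. Limma called 0 of them for the interaction, the E2 effect in soy minus that in casein, and 0% of all genes. None of the 10 had an unadjusted p under 0.05, against 6.53% of all genes. The interaction was 0.71 for Atf3 (95% interval -0.25 to 1.67), 0.53 for Fosb (-0.23 to 1.28) and -0.42 for Egr2 (-1.16 to 0.33). For Ier3 it was 0.08 (-0.99 to 1.16). The intervals of Atf3, Fosb, Egr2, Egr1, Fos and Ier3 reach a doubling or a halving of the E2 effect, so these pools cannot show that the diets acted alike.

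Soy changed none of the 10 genes past the test, with or without E2. With E2, limma called 0.00703% of all genes (1 gene, Ppif, a mitochondrial cyclophilin gene named after its value was seen) and 0 of the 10. Fosb was the 1 of the 10 with an unadjusted p under 0.05, against 5.1% of all genes. Fosb was 0.57 higher in soy plus E2 than in casein plus E2 (95% interval 0.0112 to 1.13, adjusted p = 0.977), and these groups did not overlap. Jun (0.17) and Ier2 (0.24) did not overlap either, with soy plus E2 the higher, so that 3 of the 10 lay wholly above, against 10.5% of all genes. For Ier2 this rests on averaging casein plus E2 pools 2 (-0.2307) and 3 (0.0388), since pool 3 as a separate array lay above soy plus E2 pool 3 (-0.0589). For Jun it rests on averaging 3 probe sets. In 1 of them casein plus E2 pool 3 (0.2033) lay above soy plus E2 pools 2 (-0.0023) and 3 (0.0753). In another, casein plus E2 pool 3 (-0.0468) lay above soy plus E2 pool 3 (-0.0997). Without E2, limma called 0 of the 10 and 0% of all genes, and 0 of the 10 had an unadjusted p under 0.05, against 10.4% of all genes. Egr1 had the smallest p there, at -0.41 (95% interval -0.96 to 0.14). The soy effect on Ier3 was 0.04 with E2 (95% interval -0.76 to 0.84) and -0.05 without E2 (-0.76 to 0.67).

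**Figure D3:**
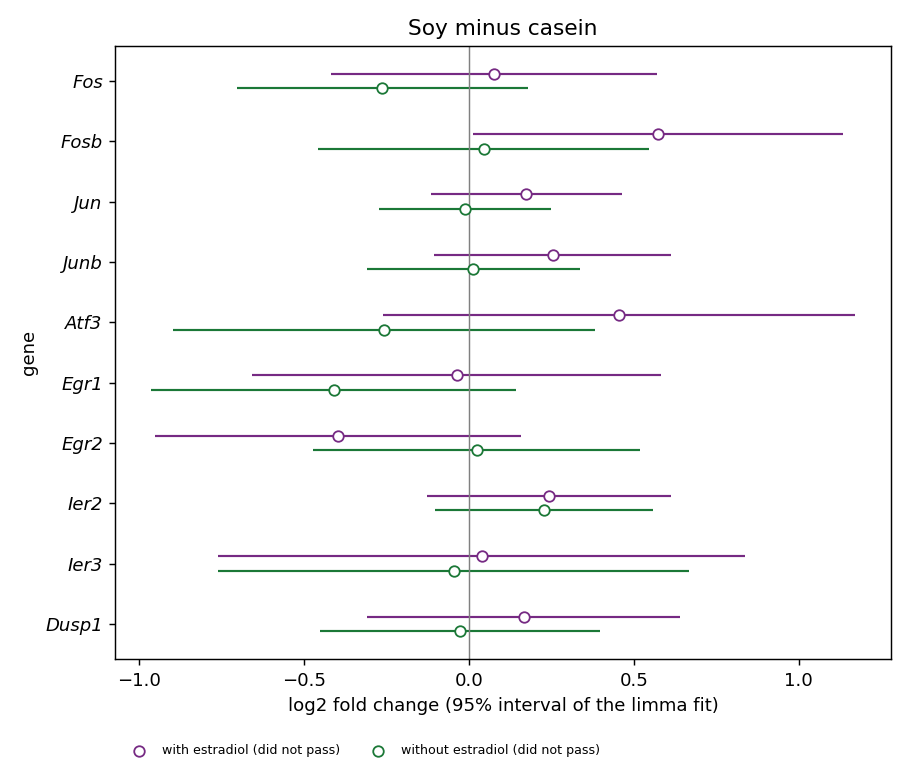
Log2 fold change of soy against casein (x axis) for each gene (y axis), with E2 (purple) and without E2 (green), with 95% intervals of the limma fit. All points are open because none passed, and the interval of Fosb with E2 is the one of 20 that leaves out 0.

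The 10 genes did not vary as one block across samples. Of the 45 pairs 35 had a positive Pearson r over the 11 samples, with a median of 0.298 and a range from -0.855 to 0.902. After adjustment over the 45 pairs 7 passed by r and 4 by Spearman's rho (permutation tests, two-sided). Shares for pairs of other genes were not computed, so these counts cannot be read as particular to the 10. Junb and Atf3 were the most alike, with r = 0.902 (adjusted p = 0.0108) and rho = 0.909 (adjusted p = 0.00562). Their r was 0.853 after group means were removed, 0.853 without the 2 samples farthest from the median, and 0.929 in the 6 samples with high hybridisation controls. Junb did not itself pass for E2. Ier3 and Dusp1 ran in opposite directions, with r = -0.855 (permutation adjusted p = 0.02) and rho = -0.836 (adjusted p = 0.0348). Their r was -0.717 after group means were removed, -0.896 without the 2 farthest samples and -0.908 in the 6 high samples. Fos and Egr1 had r = 0.831 (permutation adjusted p = 0.02) and rho = 0.70 (adjusted p = 0.114), with r = 0.753 after group means were removed, 0.714 without the 2 farthest samples and 0.903 in the 6 high samples. The 5 samples with low controls were too few for a value of their own. The 6 high samples include the whole casein group, so they are not a balanced subset of the groups.

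The mean of the 10 genes was highest in soy plus E2 pool 2 (0.45), where all 10 were above 0, and lowest in soy pool 3 (-0.37) and casein pool 2 (-0.30), where 2 of 10 were above 0. The genes outside the 10 most like this mean over the 11 samples were Sugt1 (r = 0.982, rho = 0.964), Gzma (0.964 and 0.918), Arfgap2 (0.956 and 0.855), the keratin gene Krt23 (0.956 and 0.936) and Zbtb43 (0.955 and 0.936). Matcap1, the DNA repair gene Rad18 and Exosc4 followed, with r from 0.949 to 0.951. These 8 were picked from all genes for their r, so no p is given. Gzma, a protease gene of cytotoxic lymphocytes, had a mean E2 effect of 1.48 ± 0.32 and Krt23 one of 1.05 ± 0.25.

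Markers of several mammary cell types moved with E2 alongside the called genes, where 6.73% of all genes were called higher and 5.51% lower. Of 8 luminal epithelium markers 5 rose in the mean E2 effect and 0 fell (median 0.956), and of 8 basal epithelium markers 4 rose (median 0.639). Of 7 adipocyte markers 6 fell (median -1.18), of 8 mast cell markers 7 fell (median -1.57), of 8 fibroblast markers 6 fell (median -0.567) and of 7 endothelial markers 3 fell (median -0.456). Of 8 macrophage markers 1 fell (median -0.251). Of 7 skeletal muscle (median -1.73), 8 liver (median -1.09) and 5 lymphocyte markers (median 0.378), 0 passed. The mean of the luminal markers lay between 0.502 and 0.540 in casein plus E2, against -1.01 to -0.079 in casein. In the soy diet it lay between -0.024 and 0.496 with E2, against -1.48 to -0.299 without E2.

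The 2 arrays lowest in luminal markers, soy pool 3 (-1.48) and casein pool 2 (-1.01), were also the 2 lowest in Ier3 and in Atf3. In the same 2 arrays the basal epithelium mean was negative (-1.03 and -0.501) and the adipocyte mean positive (0.363 and 0.925). Only the luminal mean was correlated with the 10 genes, so the relation is not shown to be particular to luminal cells. Over the 11 samples Ier3 and the luminal mean had r = 0.924 (permutation p = 3e-05, adjusted p = 0.0003 over the 10 genes) and rho = 0.918 (adjusted p = 0.0021). Their r was 0.867 after group means were removed, 0.862 without the 2 farthest samples and 0.906 in the 6 samples with high controls. Atf3 had r = 0.834 (permutation adjusted p = 0.00677) and rho = 0.882 (adjusted p = 0.0034), with r = 0.707 after group means were removed, 0.767 without the 2 farthest samples and 0.753 in the 6 high samples. Egr2 had r = 0.648 (permutation adjusted p = 0.0444) and rho = 0.727 (adjusted p = 0.028), with r = -0.0599 after group means were removed, 0.746 without the 2 farthest samples and 0.712 in the 6 high samples. The relation was not limited to the genes called for E2. Over the 10 genes 7 passed by r and 6 by rho. The same share over all genes was not computed, so these counts cannot be read as particular to the 10. The permutations moved samples across groups, so the p-values do not set shifts shared with E2 apart from variation within groups. No p was computed within groups. Egr1 had r = 0.812 (permutation adjusted p = 0.00677) and rho = 0.80 (adjusted p = 0.0113), with r = 0.642 after group means were removed, 0.631 without the 2 farthest samples and 0.737 in the 6 high samples. Junb (r = 0.67, permutation adjusted p = 0.041) and Fos (r = 0.743, permutation adjusted p = 0.0213) had rho = 0.682 (adjusted p = 0.0418) and 0.482 (adjusted p = 0.196). Their r was 0.599 and 0.711 after group means were removed, 0.452 and 0.382 without the 2 farthest samples, and 0.669 and 0.714 in the 6 high samples. Dusp1 ran the other way, with r = -0.699 (permutation adjusted p = 0.0357) and rho = -0.818 (adjusted p = 0.0113), and with r = -0.346 after group means were removed, -0.776 without the 2 farthest samples and -0.79 in the 6 high samples. Jun, Ier2 and Fosb did not pass, with r = 0.809, 0.564 and -0.0218 after group means were removed. The part of epithelial or other cell content in the E2 effects was not tested.

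**Figure D4:**
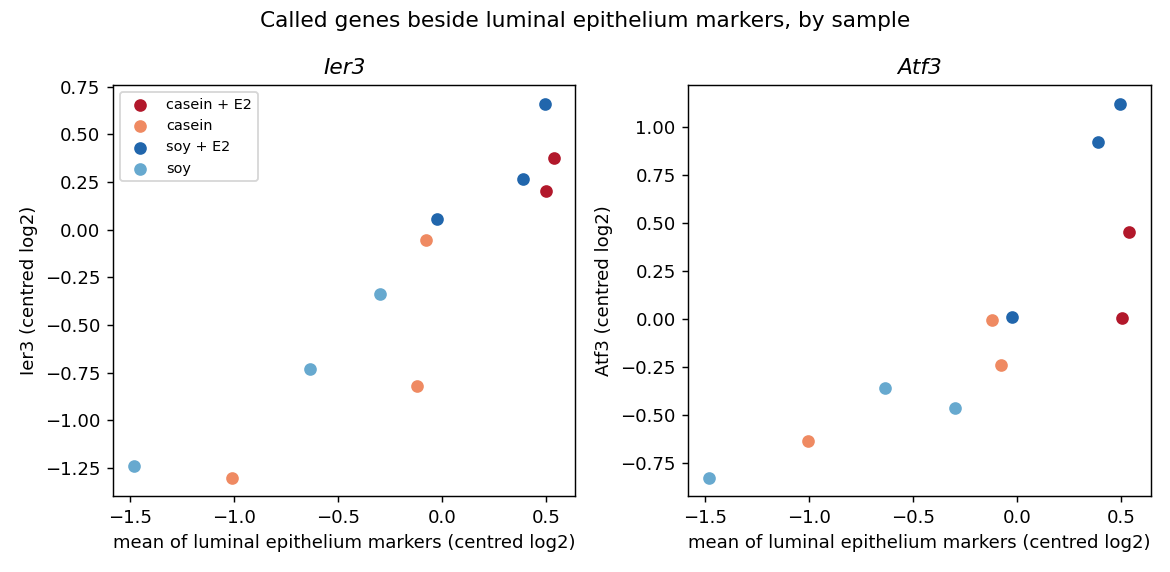
Ier3 (left) and Atf3 (right) in centred log2 values (y axes) against the mean of 8 luminal epithelium markers in centred log2 values (x axes), with a point for each of the 11 samples coloured by group. Soy pool 3 and casein pool 2 lie at the lower left in both panels. In the Atf3 panel casein plus E2 pool 1 (0.0063) and soy plus E2 pool 3 (0.0113) lie level with casein pool 1 (-0.0063).

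A second list of 44 other early response genes, 43 of them measured, had 2 genes higher and 1 lower in the mean E2 effect, with a median change of 0.047. Those are 3 of 43, against 12.2% of all genes. Phlda1, a growth factor-induced gene, rose in both diets. It stood at 1.15 and 1.11 in casein plus E2, against -0.53, -0.67 and -1.22 in casein. Soy-fed samples stood at 0.53, 1.02 and 0.58 with E2, against -0.96, -1.36 and -1.09 without E2. No sample with E2 came near one without, and the change was 1.93 ± 0.22 in casein (limma adjusted p = 0.0114) and 1.84 ± 0.20 in soy (limma adjusted p = 0.0174). It was the 1 gene of the 43 called within each diet.

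Cebpb, a transcription factor needed for mammary duct and alveolus development, rose by 0.57 ± 0.16 in the mean E2 effect (limma adjusted p = 0.0442). Nfil3, a bZIP transcription factor of the circadian and immune systems, fell by 0.63 ± 0.11 (limma adjusted p = 0.0117). Cebpd (0.52), Myc (0.40), Klf6 (-0.35), Ptgs2 (-0.41) and Rhob (-0.40) had unadjusted p under 0.05 and did not pass. Myc had an E2 effect of 0.73 ± 0.20 in the casein diet alone (limma adjusted p = 0.0889) and an interaction of -0.66 ± 0.27 (limma adjusted p = 0.754).

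For soy against casein, limma called 0 of the 43 other early response genes. With E2, 3 of the 43 had an unadjusted p under 0.05, against 5.1% of all genes, and without E2, 6 had, against 10.4% of all genes. Both shares are near those over all genes. Dusp2, a phosphatase gene of lymphocytes, had the largest change, 1.63 ± 0.52 without E2 (limma adjusted p = 0.419). Dusp2 stood at -0.51, 1.13 and 1.55 in soy, against -0.71, -1.09 and -0.92 in casein, and the lymphocyte marker mean in the same soy pools was -1.83, 2.07 and 2.51. Dusp2 and that mean were both low in soy pool 1 and high in soy pools 2 and 3. Both also followed the hybridisation control split in all groups. They lay below 0 in every sample with high controls and above 0 in every sample with low controls. Every casein array was on the high side, so this soy change cannot be told apart from that split. The part of lymphocyte content was not tested. Dusp6 (-0.46), Nr4a1 (0.46) and Sgk1 (0.55) had the smallest p values for soy with E2, and none passed.

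Of 18 genes upstream of the immediate early response 14 were measured, and 3 passed in the mean E2 effect, 1 higher and 2 lower, against 12.2% of all genes. Egfr, the receptor of epidermal growth factor, rose by 0.42 ± 0.11 (limma adjusted p = 0.038). Rps6ka3, a kinase activated by the MAP kinases, fell by 0.53 ± 0.11 (limma adjusted p = 0.0209). Elk3, a partner of serum response factor, fell by 0.24 ± 0.06 (limma adjusted p = 0.0365). None of the 14 passed within a diet, for soy or for the interaction.

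**Figure D5:**
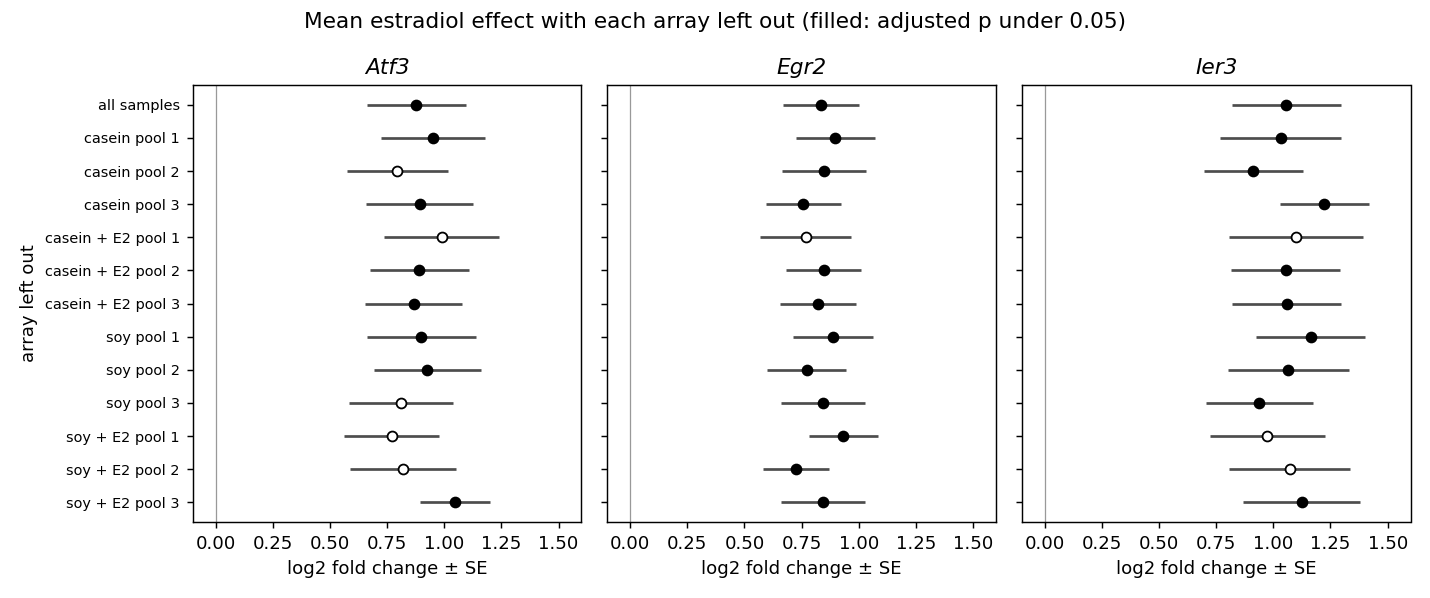
Mean E2 effect of Atf3, Egr2 and Ier3 as log2 fold change ± SE (x axes) with all samples and with each of the 12 arrays left out in turn (y axis). Filled points passed over all genes. The effects stay between 0.73 and 1.22, and casein plus E2 pool 1 is the array whose loss ends all 3 calls, leaving 1 sample in its group that is assumed to vary like the others.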

How the data were processed

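Per the labels' protocols, 8 µg of total RNA per pool was biotin-labelled for Affymetrix rat arrays. The deposited table gives no scale, and its spread was taken to be that of log2 values, on which every fold change rests. In that table the median of each probe set over the arrays is 0. How the authors summarised and normalised the signals is not given in the sources used here. GCOS is named in the submitters' processing notes, with no version. The description field speaks of liver, but the source of all samples is mammary gland. The number of arrays limits the precision.

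Probe sets of 1 gene (20826) were averaged per gene, giving 14217 genes. Probe set names ending in s or a can match several transcripts. The 11 samples entered 1 fit with a mean per group (limma 3.58.1 in R 4.3.3, eBayes without a trend) and 6 contrasts were tested two-sided, with Benjamini-Hochberg adjustment over all genes. Errors are standard errors of the fit, and intervals are 95% intervals. No filter on dim probe sets could be used, because centred values hold no level. Correlations across samples used 100000 permutations, which moved samples across groups, so their p-values include differences between groups. The code was tested on simulated data.

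Pool numbers come from the titles, and nothing says that they mark a shared animal or day. The genes named are all 10 members, those of 2 further lists with the smallest p, and the 8 most alike, and the text prints most of them. The members, the lists and the rules were chosen with earlier results of these data known. Alternatives were quantile normalization, array medians at 0, every probe set tested, the probe set of largest SD, only the contrast's groups, 12 separate arrays, pool number as a replicate block, array weights, the hybridisation control split (18 probe sets) as a term and leaving out each array.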

Additional observations from a re-analysis of the deposited data

How the results depend on the processing

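Of 1240 values of the 10 genes under 21 alternatives, 1216 kept their side of the threshold, 9 lost a call, 15 gained one and 0 turned sign on a call. For the mean E2 effect 3 of the 10 were called, and 0 to 4 when an array was left out. With casein-fed rats alone the count was 0, against 1 with 12 separate arrays, 1 with those and a replicate block, 1 with the control split as a term, 2 with array weights (Egr2 and Ier3), and 0 to 1 without an array. With soy-fed rats alone it was 0, against 3 with array weights (Atf3, Egr2 and Ier3) and 0 to 1 without an array. No other alternative moved these counts by more than 1.5 times.

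Counts over all genes moved more. For the mean E2 effect 1741 genes passed, 2641 with 12 separate arrays, 2051 with the replicate block on those, 3318 with array weights and 313 to 2334 without an array. For casein-fed rats 346 passed, 628 with quantile normalization, 200 with only the contrast's groups, 1369 with 12 separate arrays, 821 with the replicate block, 1408 with array weights and 5 to 590 without an array. For soy-fed rats 31 passed, 234 with quantile normalization, 9 with only the contrast's groups, 226 with 12 separate arrays, 26 with the replicate block, 2034 with array weights, 73 with the control split and 0 to 760 without an array. For soy with E2 1 passed, 6 with quantile normalization, 0 with every probe set, 2 with the probe set of largest SD, 13 with 12 separate arrays, 3 with the replicate block, 7 with array weights and 0 to 3 without an array. For soy without E2 0 passed, 1588 with array weights and 0 to 327 without an array. For the interaction 0 passed, 4 with 12 separate arrays, 1 with the replicate block, 5 with array weights and 1 with the control split. The causes were not tested, beyond the smaller or larger number of samples in some alternatives.

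Pool numbers did not pair the arrays: same-numbered arrays of different groups had a median r of 0.03 in their deviations from group means, against 0.015 for other arrays, and 2 of 12 arrays were closest to one of their own number. Signal over background is unknown here, so a gene near 0 change may also be a dim probe set.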
